A study of Mus musculus with 18 samples.

Results

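MPC3 is a line of prostate cancer cells from the mouse, and its baseline gene expression was described here in the control cells of a knockdown series. The members were the 6 libraries that the labels call control and title plko, out of 18 libraries in all; the other 12 carried 1 of 2 short hairpin RNAs against Rnf185 (shRNF185.1 or shRNF185.3, 6 libraries each) and were not compared here. RNA was polyadenylated, libraries were directional, and single-end reads were 75 bases long. The labels place control libraries 1 and 2 in batch 1, libraries 3 and 4 in batch 2, and libraries 5 and 6 in batch 3. Beyond the line and the word control, the labels state no genotype of MPC3, no passage, and neither what the plko control carried nor whether the 6 libraries came from separately grown cultures, so the spread given below is the spread between these libraries and may be partly technical.

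As background, the prostate gland is lined by luminal cells, which express simple keratins and depend on androgens, over a layer of basal cells, which express Trp63 and the basal keratins. Carcinoma cells can lose cell adhesion genes of the epithelium and gain those of mesenchyme, such as vimentin and fibronectin, and can make part of the collagen-rich matrix around them. Cultured tumour cells also commonly run glycolysis in the presence of oxygen, with pyruvate reduced to lactate.

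Levels are the deposited CPM values, which are counts scaled to a common library size, and are compared between genes only after division by the gene's exon length in kilobases (CPM per kb). That length is the union of all annotated exons of the gene. It can exceed the length of the transcript present, so differences between genes per kb depend on it. A gene was called expressed at a CPM of at least 1 in all 6 libraries. Total counts ranged from 24067000 (library 3) to 43379662 (library 4), so that a floor of 3 counts corresponded to 0.0701 to 0.124 CPM; this floor and every interval of counting cover counting error only. Pairs of libraries, which share annotation but not depth, correlated at 0.981 to 0.994 on the log2 scale over expressed genes. The highest pairs lay across batches (libraries 1 and 3 at 0.9944, libraries 2 and 6 at 0.9943). Pairs within batches 1, 2 and 3 were at 0.9938, 0.9932 and 0.9905. No library stood apart from the other 5 on every measure, but mitochondrial transcripts took 3.41% of library 5 and 2.01% to 2.58% of the other libraries.

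Of the 11838 genes expressed, 11026 (93.1%) were protein coding. A CPM of at least 10 in all 6 libraries was reached by 8882 genes, of at least 100 by 1997 and of at least 1000 by 72. The 10 genes with the highest CPM held 4.94% of the sum, the top 100 held 18.8% and the top 1000 held 51.4%. Per kb, the 15 highest entries were 5 mitochondrial genes led by mt-Co1, a subunit of cytochrome c oxidase (5505 ± 664 CPM per kb; SD, n = 6 here and below), 6 nuclear genes and 4 entries whose every 75-base window also occurs in another gene. The 6 nuclear genes were Eef1a1, a translation elongation factor (4071 ± 268 CPM per kb), the ribosomal protein genes Rplp1 and Rps2, Lgals1, which encodes the lectin galectin-1 (2781 ± 394 CPM per kb), S100a4, a calcium-binding protein of motile cells (2317 ± 325 CPM per kb), and Ptma, which encodes prothymosin alpha. The 4 entries with all windows shared (Gm10925, Gm28437, Rps12l1 and Gm10123) are uncertain, because reads of 75 bases cannot separate them from their copies. For mt-Co2, 99.5% of windows are shared as well, and for mt-Co1 39.8%.

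Keratin-bearing epithelial and vimentin-bearing mesenchymal transcripts were both abundant in every control library. Krt8, a simple keratin of luminal cells (chromosome 15, 101996698 to 102004482, minus strand, on GRCm38), ranged from 1068 to 1338 CPM with a median of 1178, and its partner Krt18 ranged from 325 to 396 CPM with a median of 354. Vim, the mesenchymal intermediate filament (chromosome 2, 13573927 to 13582826, plus strand), ranged from 2750 to 3716 CPM with a median of 3188. These 3 genes sat within 1.35-fold between the lowest and the highest library. Per kb, Vim (675 ± 73.4 CPM per kb) and Krt8 (611 ± 50.1 CPM per kb) could not be ordered: the log2 ratio of Vim over Krt8 was 0.14 ± 0.14, positive in 4 of 6 libraries. Without division by length the log2 ratio was 1.42, so this near equality depends on the exon lengths used. For Krt8, 22% of windows are shared with another gene.

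**Figure D1:**
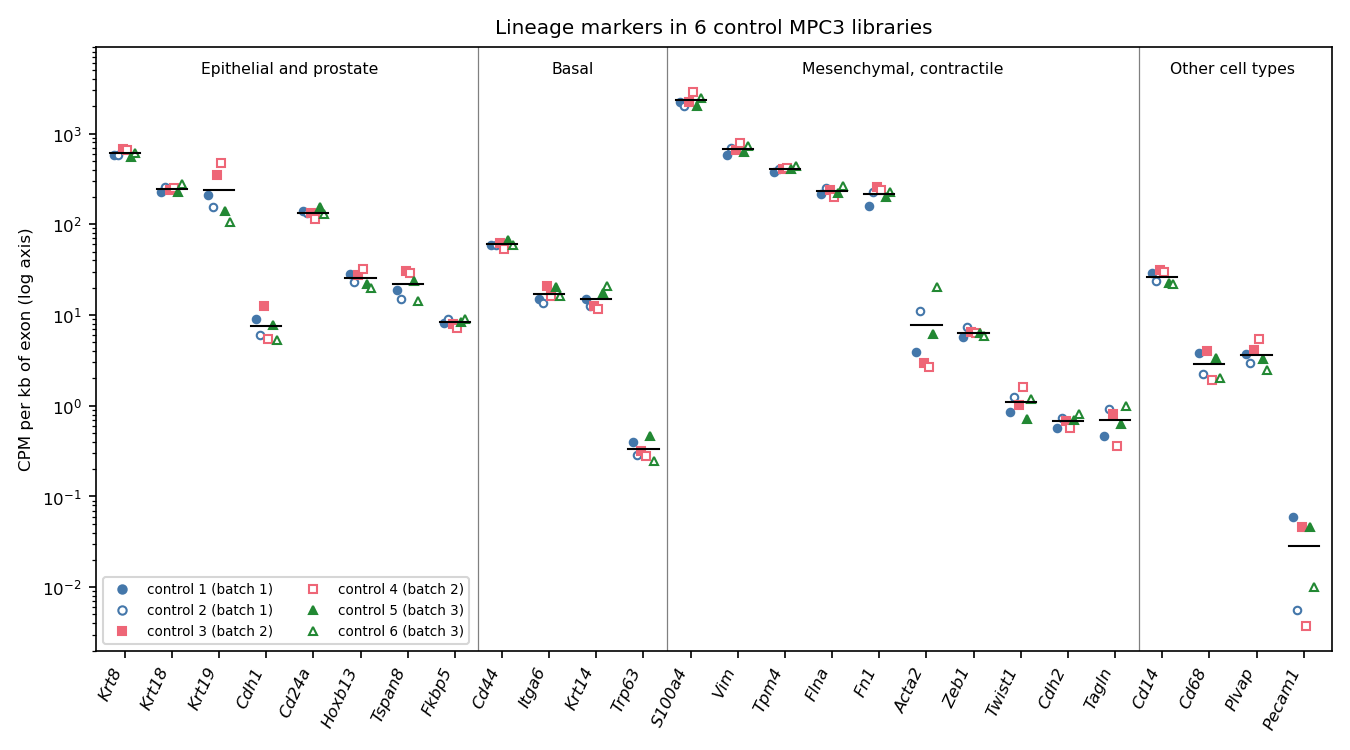
Levels of lineage markers in the 6 control libraries, as CPM per kb of exon on a log axis; each point is a library, marked by batch, and the bar is the mean of 6. Krt8 and Vim sit at 611 and 675 CPM per kb, while Zeb1 and Cdh1 lie at 6.35 and 7.66 CPM per kb and Cdh2, Trp63 and Pecam1 lie lower.

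The epithelial program was present in part. Of 24 genes of epithelial junctions and simple keratins, 13 were expressed and 3 (Cldn7, Esrp1 and St14) stayed at or under 3 counts in every library. Cdh1, the epithelial cadherin, was measured at 40.9, 27.2, 57.7, 25.1, 35.2 and 24.2 CPM in libraries 1 to 6, so the lower-numbered library of each batch held more than the other. Epcam, an adhesion protein of most carcinomas, had 1 to 7 counts per library, and Esrp1, the epithelial splicing regulator, had 0 in all 6. Krt19, another simple keratin, was the variable member of this list, at 392, 288, 651, 868, 260 and 198 CPM. Both libraries of batch 2 were highest for Krt19 and both of batch 3 lowest.

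Prostate identity genes were also present in part. Hoxb13, the homeobox gene of the prostate, was at 56.5 ± 10.3 CPM, and Fkbp5, a known androgen-responsive gene, at 78.3 ± 6.73 CPM. The secretory genes Pbsn and Msmb had no counts in any library. In all, 10 of 25 luminal and androgen response genes were expressed, and 12 were at or under 3 counts in every library. The most abundant per kb was Cd24a, a surface protein of luminal cells (134 ± 12.9 CPM per kb), and Tspan8 varied from 24.3 to 52.5 CPM.

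Basal and neuroendocrine genes were expressed in part, with several defining markers low or absent. Trp63, the factor that defines basal cells, was at 2.78 ± 0.696 CPM, Krt14 at 26.5 ± 6.41 CPM, and Krt5 had at most 1 count. Among the 17 basal genes, 8 were expressed, led per kb by Cd44, a hyaluronan receptor found in many cell types (60.0 ± 4.42 CPM per kb), with Itga6 at 17.0 ± 2.91 CPM per kb. Neurod1 and Chga, which mark neuroendocrine cells, had 0 counts in all 6 libraries, and Syp, which encodes synaptophysin, had 1 to 5 counts. The 8 of 20 genes of that list that were expressed were led by Tubb3, Ezh2 and Sox2, which other cells use as well, and Ncam1 spanned 31.1 to 59.1 CPM. The whole list summed to 364 to 421 CPM, with means of 110 CPM for Ezh2 and 82.7 CPM for Tubb3.

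Mesenchymal genes were expressed in 23 of 27 cases. Their order per kb was S100a4, Vim and then Fn1, which encodes fibronectin (218 ± 33.5 CPM per kb), with the last ranging from 1880 to 2992 CPM. Cdh2, the mesenchymal cadherin, stayed low at 5.44 ± 0.761 CPM; per kb, Cdh1 exceeded it in 6 of 6 libraries (log2 ratio of Cdh2 over Cdh1 -3.44 ± 0.56, 10.9-fold). Of the transcription factors of this state, Zeb1 was at 65.2 ± 5.93 CPM and 4.01-fold above Zeb2 per kb in 6 of 6 libraries, while Twist1 was at 1.80 ± 0.513 CPM. Thy1, Six2 and Tcf21 had 0 counts throughout. Contractile genes that many cells use were abundant and even, with Tpm4 at 407 ± 20.5, Tagln2 at 255 ± 25.9 and Flna at 233 ± 22.8 CPM per kb, whereas the smooth muscle genes Tagln and Myl9 were at 1.39 ± 0.505 and 1.31 ± 0.587 CPM. Acta2, smooth muscle actin, was at 8.50, 24.3, 6.53, 5.84, 13.5 and 44.2 CPM, so library 6 was highest and the 2 libraries of batch 2 lowest; its median was 11.0 CPM.

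Most of the markers listed for other cell types were at or near 0. Ptprc, the pan-leukocyte gene, had 0 to 2 counts, and 15 of 20 immune markers were at or under 3 counts in every library. The summed immune list ranged from 42.4 to 62.7 CPM, of which Cd14, a receptor for bacterial lipopolysaccharide that epithelial cells can also make, held 45.8 ± 7.24 CPM. Cd68, also of the immune list, was at a mean of 3.65 CPM. The endothelial list summed to 11.4 to 18.4 CPM, mostly Plvap and Egfl7, with Pecam1 at 1 to 11 counts and Cdh5 at no more than 1. Such sums cover only the genes listed. Cd34 and Ptprb, which are not on the endothelial list, were at means of 986 and 42.4 CPM. None of 14 erythroid, adipose and muscle genes was expressed, and these summed to 1.76 to 2.91 CPM.

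The Hox genes, which mark position along the body axis, were unequal between clusters. Of 39 Hox genes, 16 were expressed, and the highest per kb were Hoxa11 (27.9 ± 2.60 CPM per kb), Hoxb13 (25.6 ± 4.67 CPM per kb) and Hoxa10 (18.2 ± 2.72 CPM per kb). Every gene measured of the HoxC cluster was at or under 3 counts in every library, and Hoxd10, Hoxd11, Hoxd12 and Hoxd13 had 0 counts. The expressed Hox genes had a median SD of log2(CPM + 1) of 0.138, close to the 0.141 of all expressed genes.

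Matrix genes made up some of the most abundant transcripts of these cells. Collagen VI and IV led the collagens: Col6a1 reached 236 ± 26.3 CPM per kb, Col4a1 111 ± 8.89 and Col4a2 86.5 ± 8.06. Col4a1 and Col4a2, whose products join in the same trimer and whose genes share a promoter region, kept the most constant ratio of all 16 pairs examined (log2 ratio 0.36 ± 0.04 per kb, Col4a1 higher in 6 of 6). Among 11 fibrillar collagens, 6 were expressed, led per kb by Col3a1 (55.6 ± 13.3 CPM per kb), Col5a1 (38.5 ± 4.23) and Col1a2 (30.1 ± 2.32). Col3a1, named in the title of the series, was at 388, 745, 593, 566, 414 and 566 CPM, with libraries 1 and 5 low and library 2 high.

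The chains of collagen I were unequal. Col1a1 lay between 46.6 and 109 CPM with a median of 83.9, and Col1a2 between 339 and 425 CPM with a median of 369. Per kb, Col1a1 was 2.58-fold below Col1a2 (log2 ratio -1.37 ± 0.45) in 6 of 6 libraries, although the usual collagen I trimer holds more alpha1 than alpha2 chains. Serpinh1, the collagen chaperone of the endoplasmic reticulum, was low at 5.71 ± 2.15 CPM, whereas other collagen-processing genes were abundant: P4hb (425 ± 95.3 CPM per kb), the crosslinking enzyme gene Lox (333 ± 51.8) and Pcolce (151 ± 16.1). Of that list of 24, 22 were expressed. Loxl2, another crosslinking enzyme, varied most, from 13.0 to 45.3 CPM, and 43.6% of its windows are shared with other genes.

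Matrix glycoproteins included Spp1, which encodes osteopontin (1579 ± 365 CPM per kb; 1769 to 3343 CPM), Thbs1, which encodes thrombospondin 1 (395 ± 60.5 CPM per kb), and Sparc, a collagen-binding protein, which was among the steadiest (242 ± 11.3 CPM per kb; 860 to 973 CPM). Of 33 such genes 26 were expressed, and Eln and Vtn, which encode elastin and vitronectin, had 0 counts. In the basement membrane list, 10 of 15 genes were expressed, led by Nid1 (77.2 ± 12.2 CPM per kb), Lama5, a laminin chain (481 to 691 CPM), and Lamc1 (33.2 ± 1.33). Agrn, which encodes the heparan sulphate proteoglycan agrin, was at 111, 119, 117 and 118 CPM in libraries 1 to 4 and at 51.6 and 50.5 CPM in libraries 5 and 6. The cell-surface syndecans Sdc1, Sdc3 and Sdc4 led the proteoglycans at 66.1 to 78.8 CPM per kb, while the small matrix proteoglycan Bgn ranged from 24.2 to 35.4 CPM and Dcn was at 24.9 ± 7.75 CPM, and Prelp spanned 5.93 to 23.5 CPM.

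Proteases and their inhibitors were expressed together. Mmp14, the membrane-bound collagenase, was at 329 ± 22.9 CPM and 3.69-fold above Mmp2, the gelatinase it activates, per kb in 6 of 6 libraries. The lysosomal proteases Ctsd and Ctsl reached 199 ± 30.1 and 96.5 ± 22.4 CPM per kb. Mmp3 ranged from 64.3 to 245 CPM, and Mmp13, another collagenase, was at 24.0, 18.1, 40.9, 13.7, 8.63 and 4.67 CPM, highest in library 3 and lowest in both libraries of batch 3. The inhibitors Cst3, Timp2, Cstb and Timp1 lay between 142 and 223 CPM per kb. Of 24 integrins and other matrix receptors, 18 were expressed. The highest per kb were Itgb1 (202 ± 18.8), which pairs with many alpha chains, Itga3 (119 ± 10.1), a laminin receptor chain, and Itgb5 (70.9 ± 8.58); Itga5, of the fibronectin receptor, was 3.20-fold above Itga6 per kb in 6 of 6 libraries, and Itga4 was at 13.7 ± 5.37 CPM.

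**Figure D2:**
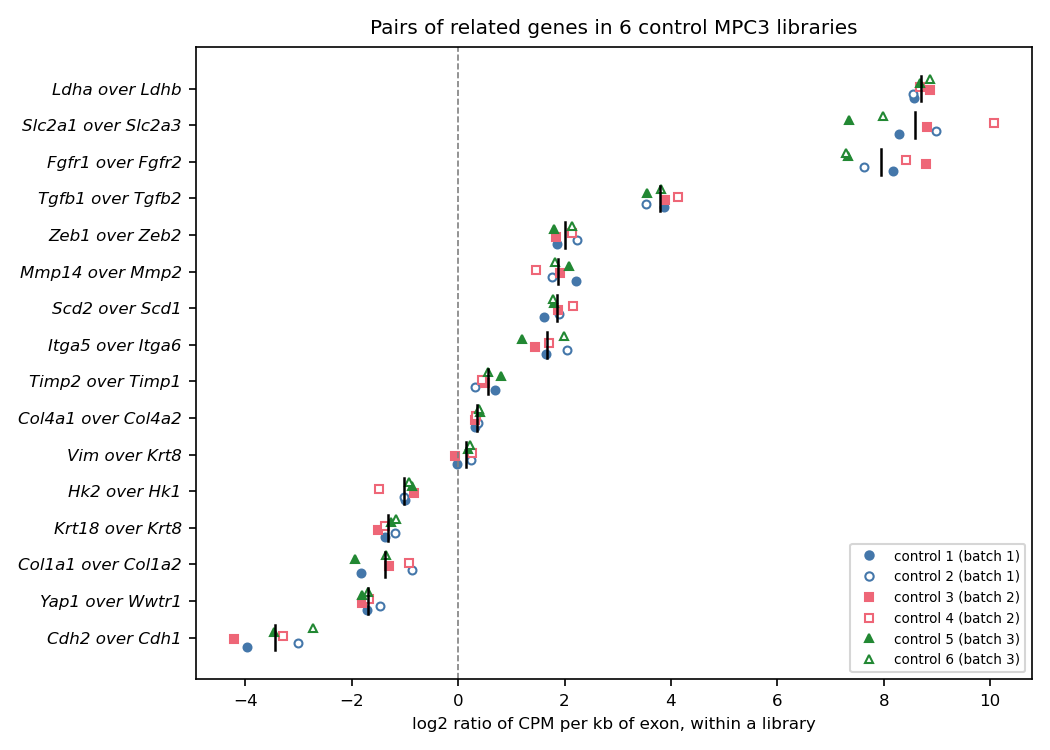
Log2 ratio of CPM per kb within each control library for 16 pairs of related genes; each point is a library, marked by batch, and the bar is the mean of 6. Vim over Krt8 straddles 0, the other 15 pairs lie on a single side of 0 in all 6 libraries, and Slc2a1 over Slc2a3 and Fgfr1 over Fgfr2, each with a denominator of few counts, have the widest spread.

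Signalling lists differed in how many of their genes were expressed. In the TGF-beta and BMP list 34 of 39 genes were expressed; Tgfb1 (132 ± 10.9 CPM) exceeded Tgfb2 13.9-fold per kb in 6 of 6 libraries, and the type II receptor gene Tgfbr2 stood at 76.1 ± 4.60 CPM. Per kb, the secreted BMP antagonist gene Fstl1 (110 ± 4.21) and the BMP targets Id1 (103 ± 16.5) and Id3 (84.2 ± 10.2) led the list, and Fstl3 ranged from 5.68 to 15.2 CPM. Wnt genes were thinner, with 27 of 55 expressed. Ctnnb1, which encodes beta-catenin, reached 219 ± 11.6 CPM per kb, well above Axin1 (28.2 ± 1.21) and the receptor Lrp5 (27.8 ± 8.89), and the ligands Wnt5a and Wnt7b were at 18.3 ± 3.76 and 9.96 ± 5.04 CPM. Lrp5 was at 338 and 399 CPM in batch 2 and at 177 and 186 CPM in batch 3.

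Among receptor tyrosine kinases, 20 of 37 were expressed. Axl, the receptor for Gas6, led at 156 ± 12.3 CPM per kb, followed by Ddr1, a collagen receptor (34.9 ± 4.50), and Met, the receptor for hepatocyte growth factor (31.1 ± 3.73); Egfr stood at 3.26 ± 0.416 CPM per kb and Flt1 at 2.98 ± 0.659. Fgfr1 exceeded Fgfr2 by 246-fold per kb, but Fgfr2 had only 12 to 30 counts per library. Met's ligand gene Hgf was at 12.4 ± 3.08 CPM and Igf1 at 6.99 ± 0.543 CPM. The highest growth factor genes per kb were the matricellular Ccn1 (324 ± 47.4) and Ccn2 (121 ± 36.2), both known YAP targets, and Csf1, the macrophage growth factor (60.0 ± 12.1); Ccn3 ranged from 16.4 to 55.9 CPM. Of the YAP and TEAD list 25 of 26 genes were expressed; Wwtr1, which encodes TAZ, was 3.23-fold above Yap1 per kb in 6 of 6 libraries, and the target Ankrd1 varied from 66.0 to 154 CPM with library 6 highest.

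Cell cycle and tumour suppressor genes were nearly all expressed (51 of 52; Mycn had 0 counts) and even, with a median SD of 0.126. Trp53, which encodes the tumour suppressor p53, was at 23.2 ± 1.83 CPM; this value counts transcripts of the whole gene and says nothing of its coding state. Myc was at 168 ± 15.1 CPM, and Cdk4, Cdkn2a and Ccnd1 were the highest of the list per kb, at 152 ± 11.7, 101 ± 7.14 and 96.9 ± 16.1. Cdkn1a, which encodes the cell cycle inhibitor p21, was the exception in spread, at 12.0, 9.60, 21.8, 24.7, 5.04 and 4.11 CPM. Both libraries of batch 2 were its highest and both of batch 3 its lowest. Of 28 Notch and hedgehog genes 15 were expressed, led by Hes1, Smo and Notch2 at 39.5, 26.8 and 16.9 CPM per kb; Notch1 was at 89.6 ± 10.5 CPM, Gli1 at 0.672 ± 0.115 CPM, and Hey1 spanned 8.22 to 16.5 CPM.

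Immediate early genes, which growth factor and stress signals induce within minutes, were all detected, and 31 of 32 in this list with the ERK feedback genes were expressed. Ier3 (288 ± 78.5), Junb (152 ± 28.5) and Ier2 (145 ± 24.0) were highest per kb, Jun was at 240 ± 44.6 CPM and the feedback phosphatase gene Dusp6 at 158 ± 26.9 CPM. Fos was at 45.0, 18.3, 62.8, 48.4, 18.1 and 7.31 CPM, and Fosb at 21.5, 8.07, 34.4, 23.9, 7.67 and 3.67 CPM. The 6 libraries fell in the same order for both genes. Within every batch the lower-numbered library held more of each.

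Secreted inflammatory mediators were among the more abundant signalling transcripts, while interferon-stimulated genes were mostly low. Cxcl12, a chemokine of stromal cells, ranged from 988 to 1372 CPM; per kb the highest of the list were Cxcl5 (312 ± 59.7), a neutrophil chemokine, Ccl2 (238 ± 26.1), a monocyte chemokine, and Ptgs2, which encodes cyclooxygenase 2 (168 ± 21.5). Il6 was at 1.76 ± 0.603 CPM. Saa3, an acute phase gene, was at 18.3, 5.92, 24.4, 3.71, 13.7 and 3.55 CPM, so that it was several-fold higher in the lower-numbered library of every batch. Of 50 genes of the interferon response and innate sensors, 32 were expressed, with a median of 4.82 CPM per kb against 7.68 over all expressed genes; Ifit1 and Isg15 were at 3.98 ± 1.69 and 2.42 ± 1.74 CPM. Antigen presentation genes stood higher: B2m, the light chain of class I molecules, at 321 ± 83.7 CPM per kb, and the class I heavy chains H2-D1 and H2-K1 at 86.2 ± 31.0 and 51.2 ± 40.1 CPM per kb.

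Glycolytic transcripts were abundant, and their summed share differed between libraries. Of 29 genes 22 were expressed, and the list took 1.39% to 2.44% of the summed CPM, with library 4 highest. Pkm, which encodes pyruvate kinase, ranged from 3726 to 6038 CPM, Pgam1 from 1245 to 1861 CPM and Ldha, the lactate-forming dehydrogenase, from 1525 to 2958 CPM. Ldhb, which favours lactate oxidation, had a mean of 2.56 CPM, and per kb Ldha exceeded it 418-fold in 6 of 6 libraries (log2 ratio 8.71 ± 0.14). The glucose transporter gene Slc2a1 was at 173, 164, 236, 285, 93.5 and 155 CPM, while Slc2a3 stayed at 0.971 ± 0.297 CPM. Hk1 was 2.03-fold above Hk2, the isoform often induced in tumours, per kb in 6 of 6 libraries. Aldoc, an aldolase isoform, was a minor transcript of the pathway (11.3 ± 8.17 CPM) and its most variable.

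The list of the TCA cycle and pyruvate entry, called the TCA cycle list here, was the steadiest of all lists with 5 or more expressed genes. All 29 of its genes were expressed, with a median SD of 0.0993 and a share of 0.393% to 0.411% of summed CPM. Mdh2 (109 ± 8.33) and Sdhd (82.5 ± 3.84) were among the 3 highest per kb, and Cs was at 422 ± 29.3 CPM. Idh1 was the most variable member of the list, from 86.6 to 144 CPM. The 13 mitochondrially encoded genes, by contrast, had a median SD of 0.313 and took 1.89% to 3.21% of summed CPM. Library 5 was the highest, and mt-Nd1 spanned 2090 to 3761 CPM. Both libraries of batch 3 were above the other 4 in 10 of the 13 genes (76.9%), against 11.3% of all expressed genes. Both of batch 2 were below the other 4 in 8, against 15.4% of all. The most variable, mt-Atp6 (314 to 922 CPM), shares 99.5% of its windows with another entry.

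Anabolic and redox pathways were largely complete. Of the pentose phosphate and redox list 25 of 26 identified genes were expressed, with G6pdx, the entry enzyme, among the steadiest at 259 to 282 CPM, Txn1 at 385 ± 27.6 CPM per kb and the glutathione peroxidase gene Gpx4 at 180 ± 14.5. Nqo1, a known target of the antioxidant factor Nrf2, was at 1.16 ± 0.320 CPM, and the cystine transporter gene Slc7a11 ranged from 35.9 to 71.7 CPM. In the list of serine, one-carbon and amino acid metabolism 34 of 37 genes were expressed. Phgdh (150 ± 27.3), Psat1 (113 ± 10.1) and Srm (81.3 ± 22.2) led that list per kb. Odc1, of polyamine synthesis, spanned 125 to 284 CPM. Sterol genes were expressed in 31 of 32 cases, led by the regulator Srebf2 and the enzyme genes Cyp51 and Sqle (57.3, 46.5 and 43.7 CPM per kb), and Abca1, the cholesterol exporter, was at 15.5 ± 5.84 CPM. Fatty acid genes were expressed in 28 of 32 cases; Scd2, a desaturase, led at 305 ± 73.4 CPM per kb and was 3.62-fold above Scd1 in 6 of 6 libraries. Of 21 steroid synthesis and receptor genes only 8 were expressed, with Hsd17b4 (76.8 ± 2.56 CPM) and the glucocorticoid receptor gene Nr3c1 (64.9 ± 6.19 CPM) the steady ones and Akr1c18 and Nr3c2 the variable ones (6.37 to 19.8 and 3.29 to 10.4 CPM).

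Proliferation and protein folding genes were expressed without exception (29 of 29 and 30 of 30). Top2a ranged from 996 to 1141 CPM and Pcna and Mcm5 reached 187 ± 16.9 and 127 ± 18.1 CPM per kb; Mki67 was at 457, 516, 542, 537, 745 and 708 CPM, with both libraries of batch 3 highest. The chaperones Hsp90ab1 (1635 ± 64.9), Hspa8 (770 ± 71.8) and Calr (405 ± 28.9) led their list per kb, and Hspa5 stood at 1085 ± 122 CPM. The stress genes Ddit3 and Trib3 were low, at 15.9 ± 4.46 and 14.1 ± 5.81 CPM.

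Spread over the 6 libraries was measured as the SD of log2(CPM + 1), a scale that understates the spread of low genes. The median over expressed genes was 0.141 (quartiles 0.101 and 0.201), which went with a median coefficient of variation of 10.5% and a median ratio of 1.32 between the highest and the lowest library. An SD of at least 0.5 was reached by 209 genes (1.77%) and of at least 1 by 18 (0.152%). Across the 40 lists, the hypoxia response had the highest median SD (0.562; median ratio of highest to lowest library 3.07), followed by interferon and innate sensors (0.423; 2.48), the mitochondrially encoded genes (0.313) and glycolysis (0.306). An SD of at least 0.5 was found in 11 of 20 expressed hypoxia genes (55%) and in 14 of 32 expressed interferon genes (43.8%). The TCA cycle (0.0993), the pentose phosphate and redox list (0.124) and the YAP list (0.124) were at the low end.

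**Figure D3:**
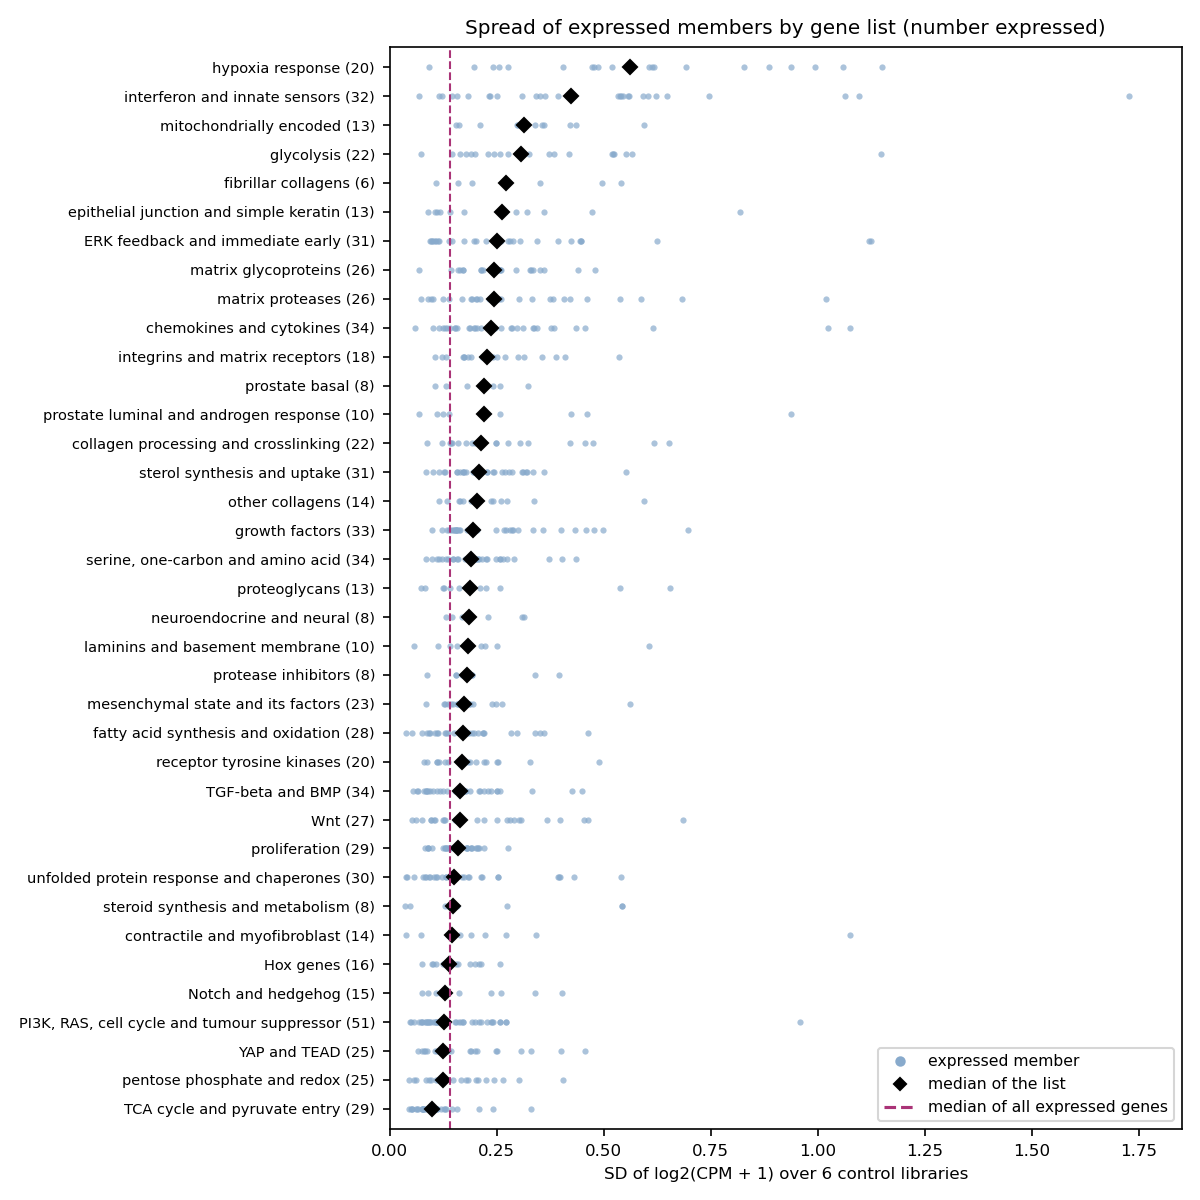
SD of log2(CPM + 1) over the 6 control libraries for the expressed members of each gene list with at least 5 of them; dots are genes, diamonds the median of the list, and the dashed line the median of all expressed genes (0.141). The hypoxia and interferon lists, at medians of 0.562 and 0.423, lie farthest to the right and the TCA cycle, at 0.0993, farthest to the left.

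**Figure D4:**
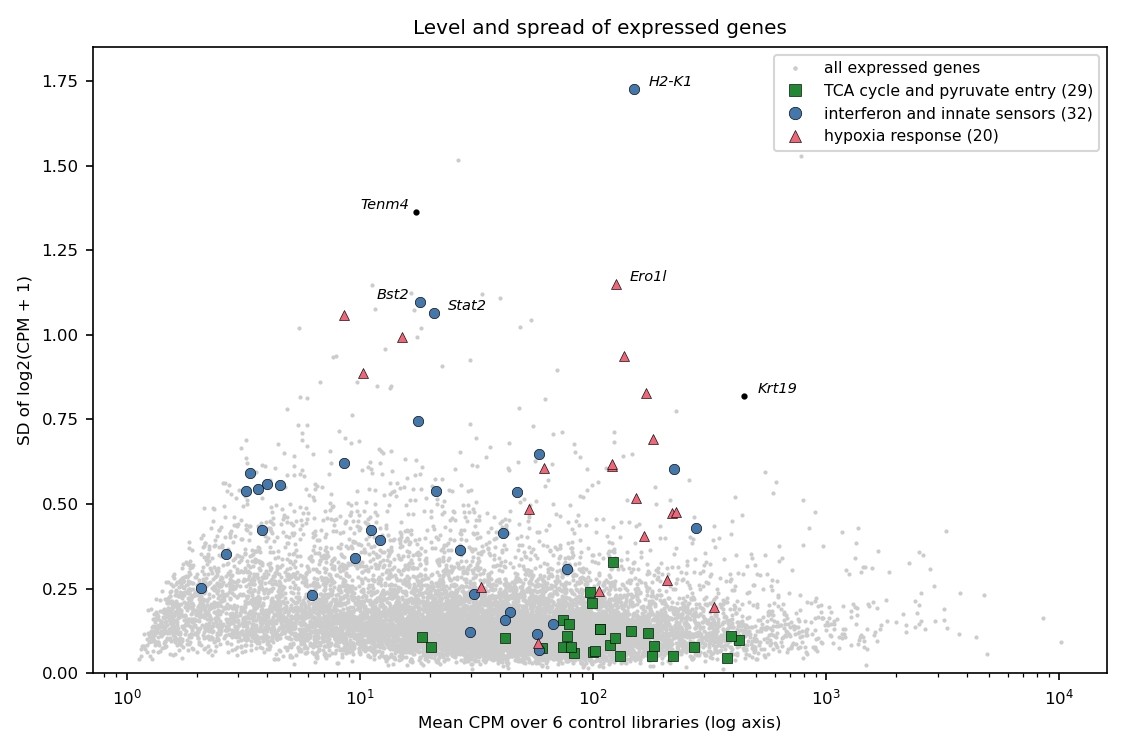
Mean CPM on a log axis against the SD of log2(CPM + 1) for each expressed gene, with 3 lists marked. Genes of the hypoxia and interferon lists reach SDs above 1 at means from 8.58 to 151 CPM (Ero1l, Adm, H2-K1, Bst2, Stat2). All 29 genes of the list of the TCA cycle and pyruvate entry stay at or under 0.330.

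Most hypoxia genes were highest in batch 2. Ero1l, an oxidase of the endoplasmic reticulum (chromosome 14, 45283087 to 45318771, minus strand), was at 115, 105, 200, 248, 56.8 and 28.0 CPM in libraries 1 to 6. Ndrg1 was at 116, 102, 182, 298, 71.8 and 47.2 CPM, and Egln3, a prolyl hydroxylase that marks HIF for degradation, at 156, 125, 263, 296, 114 and 62 CPM. In all 3 genes both libraries of batch 2 were highest and both of batch 3 lowest. Over the 20 expressed hypoxia genes, both libraries of batch 2 were above the other 4 in 17 (85.0%), against 14.8% of all expressed genes. Both of batch 3 were below the other 4 in 12, against 13.2% of all. The batch test given below, which is a different measure from these ranks, called 0.498% of all genes. In glycolysis both libraries of batch 2 were highest in 17 and both of batch 3 lowest in 15 of 22 expressed genes. Hif1a, which encodes the oxygen-regulated subunit of HIF and is controlled largely at the protein level, ranged from 276 to 375 CPM and was highest in library 5. The other hypoxia genes named per kb were Ddit4 (94.4 ± 26.5), Egln1 (60.8 ± 21.2) and Vegfa (52.9 ± 17.0).

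Interferon-linked genes also stood low in batch 3. H2-K1 (chromosome 17, 33996017 to 34000347, minus strand), the protein-coding gene with the largest SD (1.73), was at 209, 175, 329 and 148 CPM in libraries 1 to 4 and at 24.2 and 17.7 CPM in libraries 5 and 6. H2-D1 was at 281, 263, 246 and 301 CPM in libraries 1 to 4 and 125 and 119 CPM in libraries 5 and 6, and B2m at 320 to 324 CPM in the first 4 libraries and 208 and 163 CPM in batch 3. Stat2, a subunit of the interferon-activated factor ISGF3, was at 20.8, 21.5, 40.0, 29.0, 8.13 and 4.93 CPM, and Bst2, which encodes tetherin, at 36.5, 33.8, 13.3, 13.4, 7.78 and 4.39 CPM. Both libraries of batch 3 were lowest in 18 of 32 expressed genes of this list (56.3%), against 13.2% of all expressed genes. The highest libraries differed between members: batch 1 for Bst2, batch 2 for Stat2 and library 3 for H2-K1. Low values in batch 3 were not confined to these lists. Both libraries of batch 3 were lowest in 14 of 30 protein folding genes and 14 of 31 immediate early and ERK feedback genes. In each of these 2 lists, both of batch 2 were highest in 12 genes. Among 29 proliferation genes, by contrast, both of batch 3 were highest in 13 and lowest in 0.

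Promoter letters were examined for these lists because they had the highest median SDs. RefSeq windows on GRCm38.p6, 250 bases before to 50 after the start site, were searched on both strands for GAAA, any 2 bases and GAAA, a pattern of the interferon-stimulated response element, and for ACGTG, the core of the hypoxia response element. The first was found in 11 of 27 matched genes among the 32 expressed interferon genes (40.7%), against 3.99% of all 27025 genes with a window and 3.44% of all 32851 windows; the second in 12 of 18 matched genes among the 20 expressed hypoxia genes (66.7%), against 21.8% of all genes and 19.6% of windows. The windows of H2-K1 and Adm hold neither pattern. Of the 21 protein-coding genes among the 30 most variable, given below, 18 were matched. The first pattern was found in 5 of these 18 (27.8%) and the second in 3 (16.7%), the latter below the share of all genes. A match describes letters only. Both lists were drawn up from genes of these responses, so their shares do not bear on the spread in these libraries. The share of all genes also includes genes not expressed here. Windows are shown for a gene pair of each list with large spread and a match, 5′ to 3′ on the gene's strand. Matches to the list's pattern or its reverse complement are in capitals. Bst2 lies at chr8:71537423-71537722 (minus strand; 2 overlapping matches that begin at -130 and -124 from the start site), Stat2 at chr10:128270248-128270547 (plus; -222), Ankrd37 at chr8:45999801-46000100 (minus; -241 and -6) and Ero1l, Ero1a in RefSeq, at chr14:45318523-45318822 (minus; -63).
Bst2: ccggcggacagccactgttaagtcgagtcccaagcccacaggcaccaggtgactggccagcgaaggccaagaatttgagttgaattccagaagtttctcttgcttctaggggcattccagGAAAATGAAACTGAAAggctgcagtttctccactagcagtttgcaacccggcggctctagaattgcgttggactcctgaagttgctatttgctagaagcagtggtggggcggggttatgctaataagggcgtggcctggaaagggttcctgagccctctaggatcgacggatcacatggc
Stat2: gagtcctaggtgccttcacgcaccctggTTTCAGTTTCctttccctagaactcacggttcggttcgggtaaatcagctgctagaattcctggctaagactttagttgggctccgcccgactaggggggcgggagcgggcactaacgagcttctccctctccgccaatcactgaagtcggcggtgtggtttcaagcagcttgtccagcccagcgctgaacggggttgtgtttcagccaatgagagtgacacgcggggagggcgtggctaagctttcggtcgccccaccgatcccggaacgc
Ankrd37: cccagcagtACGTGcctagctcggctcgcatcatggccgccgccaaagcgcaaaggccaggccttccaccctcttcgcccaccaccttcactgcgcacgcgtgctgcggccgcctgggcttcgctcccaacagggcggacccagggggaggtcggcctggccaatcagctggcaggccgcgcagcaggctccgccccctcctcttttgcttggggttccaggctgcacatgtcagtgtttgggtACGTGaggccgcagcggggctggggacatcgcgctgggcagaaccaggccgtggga
Ero1l: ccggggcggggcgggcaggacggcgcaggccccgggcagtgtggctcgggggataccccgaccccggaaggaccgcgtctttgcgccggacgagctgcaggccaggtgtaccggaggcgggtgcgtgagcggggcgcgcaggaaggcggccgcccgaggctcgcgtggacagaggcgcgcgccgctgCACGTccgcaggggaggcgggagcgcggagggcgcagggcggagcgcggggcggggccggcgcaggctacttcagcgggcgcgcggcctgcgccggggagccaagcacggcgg

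The 30 most variable genes, ranked by SD among the 10378 genes with a mean of at least 5 CPM, were chosen on these values, so their spread is a description. Of the 30, 21 were protein coding. The last gene inside was Ube2l6 (SD 0.938) and the first outside Ndrg1 (0.937). After H2-K1 the protein-coding genes with the largest SD and few shared windows were Tenm4, Ero1l, Aldoc, Fosb, Fos, Bst2, Saa3, Acta2, Stat2 and Adm. Tenm4, a teneurin membrane protein (chromosome 7, 96171246 to 96911093, plus strand), was at 14.9, 12.8, 33.3, 36.5, 4.16 and 2.82 CPM, with batch 2 highest and batch 3 lowest. Helz2, a nuclear coactivator, at 55.3, 53.9, 85.8, 94.1, 21.5 and 15.1 CPM, and Il33, an alarmin cytokine, at 34.7, 27.7, 91.2, 95.6, 28.7 and 15.1 CPM, had the 2 libraries of batch 2 highest as well. Adm, which encodes adrenomedullin, and Cyp2s1, a cytochrome P450, were highest in library 4 (23.9 and 16.2 CPM); without that library their means would be 5.53 in place of 8.58 CPM and 3.32 in place of 5.48 CPM, more than 1.5 times lower.

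**Figure D5:**
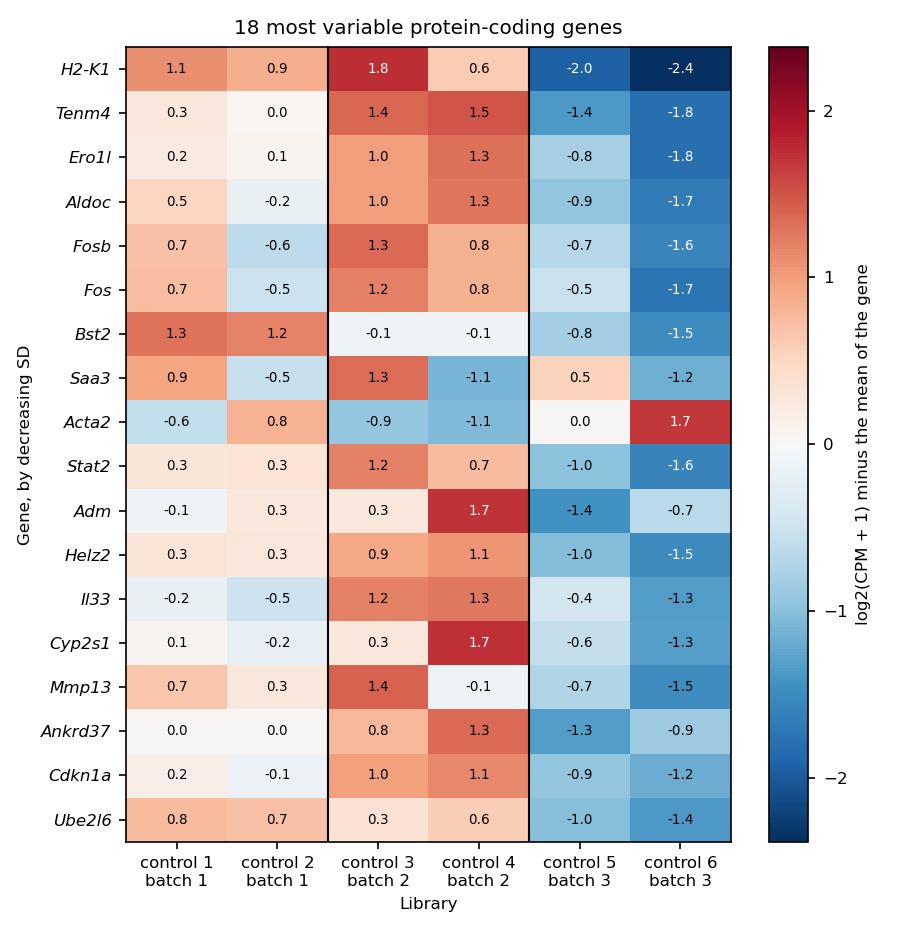
The 18 most variable protein-coding genes with at most 10% of their 75-base windows shared, as log2(CPM + 1) minus the mean of each gene over the 6 control libraries, with lines between batches. Red is above and blue below the mean; libraries 5 and 6 are below the mean for most genes, and Acta2, at 44.2 CPM in library 6, and Saa3, at 13.7 CPM in library 5, differ from them.

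Batch 3 held both of the lowest libraries in 17 of the 21 protein-coding genes (81.0%), against 13.2% of all expressed genes. Batch 2 held both of the highest in 12 (57.1%), against 14.8% of all. The batch test, which is a different measure from these ranks, called 0.498% of genes. The 21 genes were chosen for their spread, so no test is given. The deposited values had been adjusted for batch over all 18 libraries. Over all 18, the batch means of an expressed gene differed by a median of 0.00795 on the log2 scale, and in the 6 control libraries alone by 0.190; for the 21 variable genes the medians were 0.227 and 2.16. For most of the 21 genes, a low control level in batch 3 was thus offset by the hairpin libraries of that batch. Bst2 was an exception, with batch means over all 18 libraries 1.54 log2 units apart. Whether these differences lie in the control cultures themselves or come from the adjustment cannot be told apart from these tables.

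The other 9 of the 30, and 3 of the 21 protein-coding ones (Gm10273, Gm4070 and Gvin1), are entries with 92.4% to 100% of their windows shared with another gene. Of the 9, 7 are annotated as pseudogenes, Gm26377 as a miRNA gene and AY036118 as a long non-coding RNA. Gm28438 ran from under the floor in library 4 to 120.5 CPM in library 5, Gm10222 was near 30 CPM in libraries 1 and 4 and under 1 CPM in the other libraries, and Gm28661 stood at 1655 CPM at its highest against 155 CPM at its lowest. Gm26377 and Gm28439 were listed at 0 in 5 libraries and at 49.3 and 41.4 CPM in library 5. Reads assigned to these entries could have come from their copies, so their values are uncertain. Without library 4 the mean of Gm10222 is 6.21 in place of 10.6 CPM, without library 1 that of Gm10163 is 4.35 in place of 6.58 CPM, and without library 5 that of Gm21742 is 3.29 in place of 5.16 CPM.

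Any difference among the 3 batches was tested on the deposited counts of the 6 control libraries, already adjusted for batch over all 18 libraries. The calls therefore describe what differs after that adjustment. With edgeR's quasi-likelihood F test and Benjamini-Hochberg adjustment, 72 of 14464 genes (0.498%) were called at an adjusted p under 0.05. Of these, 55 had batch means at least 1 log2 unit apart; 62 were lowest in batch 3 and 55 highest in batch 2. Among the lists, 4 of 21 hypoxia genes were called (19.0%; Ndrg1, Vegfa, Ankrd37 and Ero1l) and 5 of 48 interferon genes (10.4%; H2-K1, H2-D1, Stat2, Bst2 and Irf9), all lowest in batch 3. The smallest p was that of Tenm4, whose batch means were 3.31 log2 units apart (edgeR adjusted p = 0.0031). Helz2, Cdkn1a and Agrn followed at 2.3, 2.32 and 1.19 log2 units (edgeR adjusted p = 0.00705 each). H2-K1 spanned 3.39 log2 units (edgeR adjusted p = 0.0167), Aldoc 2.77 (edgeR adjusted p = 0.0322), Ero1l 2.47 (edgeR adjusted p = 0.0294), Krt19 1.72 (edgeR adjusted p = 0.0253) and Lrp5 1.00 (edgeR adjusted p = 0.0294). Many of these genes are also among the most variable, a choice made on the same libraries, so their calls do not support that choice. Fos, Fosb, Acta2 and Saa3, although as variable, did not pass (edgeR adjusted p = 0.133, 0.106, 0.214 and 0.939). Other members of the lists called were Pfkp in glycolysis, Dusp1 and Jund among immediate early genes, Il33 among cytokines, and Id2 in the TGF-beta list, the last highest in batch 3. Irf9, Pfkp, Dusp1, Jund and Id2 are named because few genes were called in their lists, after their values were seen. In all, 12 of the 40 lists held a call, and Agrn was the call among the matrix lists; each batch holds only 2 control libraries. The count fell to 20 without library 6 and to 35 without library 4, and was 3 without batch 3; by DESeq2 it was 900. With 1 library left out at a time, Tenm4, Helz2, Cdkn1a, Agrn, Ero1l, Bst2, Il33 and Ankrd37 passed in every edgeR fit. The calls of H2-K1 and H2-D1 were lost without library 5 or 6, of Krt19 and Aldoc without library 4 or 6, of Stat2 and Ndrg1 without library 6, of Vegfa without library 4, 5 or 6, and of Lrp5 without library 2, 4, 5 or 6.

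Some lists differed between the libraries of a batch. The second principal component of the expressed genes (23.4% of variance, after 51.3% for the first) placed the lower-numbered library above the other in all 3 batches. Among lists with at least 20 expressed genes, sterol genes followed this order most often: 25 of 31 expressed genes (80.6%) were higher in the lower-numbered library of every batch and 0 lower, against 20.2% and 16.6% of all expressed genes. Interferon genes did so in 21 of 32 (65.6%), and among smaller lists the mitochondrially encoded genes in 8 of 13 and the immune markers in 2 of 2. Of the proliferation genes, 16 of 29 were lower in the lower-numbered library of every batch and 0 higher. The same was so of 15 of 34 serine, one-carbon and amino acid genes (2 higher) and 10 of 22 collagen-processing genes (0 higher). It was also so of 7 of 14 collagens outside the fibrillar list (4 higher). What the numbers within a batch stand for is not given in the labels, and these counts were looked at after the component was seen.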

How the data were processed

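RNA-seq of MPC3 control cells was analysed in 6 of 18 libraries. The authors deposited expected counts per gene, adjusted for batch with ComBat-Seq per the labels; 0.466% of values are not whole, and they were rounded for edgeR, although whole counts had been planned for. The authors also deposited a normalised signal, CPM, equal to those counts divided by TMM-scaled library sizes. Per the submitters' processing notes, mm10, cutadapt 2.3, STAR 2.7.0d and RSEM 1.3.1 were used; the annotation is not given in the sources used here.

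Genes with a summed count under 90 are absent from the CPM table, which holds 15386 genes. Exon lengths, gene types and 75-base windows shared between genes came from GENCODE M21 (GRCm38). Depth was 24067000 to 43379662 counts per library, with intervals and floors covering counting error only. The labels do not say that replicates were separate cultures, so p-values measure the spread between these libraries.

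Batches were compared with edgeR 4.0.16 (quasi-likelihood F test, 3 residual degrees of freedom, Benjamini-Hochberg over 14464 genes). The test was also run on simulated counts with a common dispersion for all genes and shifts in batch 3 only. That is a simpler setting than these data. Alternatives used DESeq2 1.42.0 and limma 3.58.1, other filters and scalings, and left-out libraries or batches, in R 4.3.3 and Python 3.11.15. Named genes were defining markers, the gene pairs, the 15 highest per kb, the 30 most variable, and in each list the 3 highest per kb, the most variable with a mean of at least 5 CPM, and members at or under 3 counts. The members and lists were chosen with earlier results of these data known. Values of some named genes are not reported here.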

Additional observations from a re-analysis of the deposited data

Results flagged for a closer look

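In 5 of 243 values tested, 1 of the 6 control libraries lay far from the other 5 by Dixon's criterion, which chance meets in about 1 of 20 groups. Itgb5, an integrin chain, was low in library 5, at 7.61 on the log2(CPM + 1) scale with the next library at 7.97. mt-Co1 was high in library 5, at 13.36 with the next at 13.06, and that library also had the largest share of mitochondrial transcripts (3.41%). Psat1, an enzyme of serine synthesis, was low in library 3, at 8.65 with the next at 8.90. Gm26377 and Gm28439, whose windows are all shared with other genes, were at 5.65 and 5.41 in library 5 and listed at 0 in the other 5. Over all expressed genes, 497 (4.20%) had such a library, and in 184 of them it was library 5 standing highest.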

How the results depend on the processing

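No paired analysis was possible because only the control group was analysed, and its replicate numbers pair it with no other group here. The number of expressed genes, the median spread and the mean CPM of the named genes stayed within 1.5 times of their value under every alternative run on them, apart from the means given beside Adm, Cyp2s1, Gm10222, Gm10163 and Gm21742, and from Gm26377 and Gm28439, which are at 0 without library 5. Of the 30 most variable genes, 10 stayed among the top 30 at a mean of at least 20 CPM, 13 when ranked by edgeR's biological coefficient of variation, 15 without batch 3 and 18 among protein-coding genes with at most 10% of windows shared; leaving out 1 library kept 23 to 27. The 72 genes called between batches became 1451 with no filter on low counts, 900 with DESeq2, 148 with limma on log2(CPM + 1), 3 without batch 3, 22 without batch 2, 460 without batch 1 and 20 to 93 when 1 library was left out (20 without library 6, 35 without library 4, 49 without library 2 and 50 without library 5). All 72 were among the 1451, the 900 and the 148. The cause was not tested, except that fewer libraries enter the last settings. Without division by length, the log2 ratios of pairs kept their sign and became 1.42 for Vim over Krt8, -2.63 for Cdh2 over Cdh1, -1.76 for Krt18 over Krt8, -2.29 for Col1a1 over Col1a2, 0.53 for Col4a1 over Col4a2, 9.78 for Ldha over Ldhb, -1.54 for Hk2 over Hk1, 7.54 for Slc2a1 over Slc2a3, -0.74 for Yap1 over Wwtr1, 1.05 for Zeb1 over Zeb2, 2.704 for Mmp14 over Mmp2, 2.69 for Timp2 over Timp1 and 0.80 for Itga5 over Itga6; exon length alone makes this difference. Genes under 0.0701 to 0.124 CPM could not be told from 0 at this depth.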
